A study of Rattus norvegicus with 180 samples.

Results

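Seminal vesicle and ventral prostate were compared within the same 3 animals of a rat miRNA atlas, which covers 55 organs on 180 arrays. The comparison used 6 of these 180 arrays, 3 per organ, and took in all miRNAs of the array design. The animals were male Sprague-Dawley rats, 10 weeks of age, and saline was perfused through animals 4, 5 and 6 to clear the blood before the organs were taken. No treatment, altered gene or other agent is named in the labels of either group. The seminal vesicle and the lobe labelled prostate_ventral of each animal form 1 pair. Both are samples of tissue and not of sorted cells, and a lower signal can come from fewer cells of a type or from less miRNA per cell, and these cannot be told apart.

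Seminal vesicle and ventral prostate are male accessory glands that depend on androgens and add fluid to the semen. The seminal vesicle arises from the Wolffian duct, as the epididymis does, and has a thick coat of smooth muscle, whereas the ventral prostate buds from the urogenital sinus and has a thin stroma around its secretory ducts. A miRNA is a short RNA that is cut from a hairpin and guides silencing proteins to messenger RNAs, mainly through its seed, the bases 2 to 8 from the 5′ end. Because the seed sets the targets, miRNAs with 1 shared seed are grouped as a family, although their genes can lie on different chromosomes and be transcribed in different cells.

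The mature sequences of selected miRNAs that differed between the glands are shown here from RefSeq (build GRCr8), with the seed in capitals. Shared and distinct seeds can thus be read beside the values. The selection is not a ranking: miR-181a and miR-361, for example, are left out, and miR-34a and let-7c, with smaller differences, are shown. Of the 137 miRNAs tested, 112 were matched to a RefSeq sequence by name and arm. The first 8 were higher in ventral prostate and come from the X-linked testis cluster, the miR-34 family, miR-21, the miR-148/152 family and miR-3584.
miR-743b-3p: gAAAGACAccauacugaauaga
miR-742-3p: gAAAGCCAccauguuggguaaa
miR-883-3p: uAACUGCAacaucucucaguau
miR-34b-5p: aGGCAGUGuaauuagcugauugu
miR-34a-5p: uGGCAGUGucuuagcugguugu
miR-21-5p: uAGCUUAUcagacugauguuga
miR-152-3p: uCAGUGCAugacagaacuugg
miR-3584-5p: gGGAGGAGuccaggaggc
The next 10 were higher in seminal vesicle and come from muscle miRNAs, from miR-375 and miR-672, from a 3-miRNA cluster on chromosome 1 and from the Hoxd locus.
miR-1-3p: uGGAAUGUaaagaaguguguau
miR-133b-3p: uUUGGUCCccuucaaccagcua
miR-143-3p: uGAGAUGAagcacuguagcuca
miR-145-5p: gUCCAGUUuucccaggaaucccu
miR-375-3p: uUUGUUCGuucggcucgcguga
miR-672-5p: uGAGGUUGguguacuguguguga
miR-99b-5p: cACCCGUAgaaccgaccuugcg
let-7e-5p: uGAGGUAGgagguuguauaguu
miR-125a-5p: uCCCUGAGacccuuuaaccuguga
miR-10b-5p: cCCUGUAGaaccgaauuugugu
The last, let-7c, was higher in ventral prostate and shares its seed with let-7e.
let-7c-5p: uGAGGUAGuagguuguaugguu

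On each array, a 1-color Agilent design labelled with Cy3, 14340 spots covered the miRNAs of the design, and the 137 tested were those that every array of one gland, or of both, detected. The normalized signals given below are in arbitrary units: each array was brought to the same 75th percentile, taken across 37 miRNAs that every one of the 180 arrays detected. Detection required more than 50% of the spots for a miRNA to lie well above background, and before log2 any normalized signal lower than 18.5 was raised to 18.5, here called the floor. Between 127 and 153 miRNAs were detected per seminal vesicle array and between 102 and 133 per ventral prostate array. The ventral prostate array of animal 6 was the dimmest of the 6, with 102 miRNAs detected and a scaling factor of 4.73 against 1.72 to 2.83 on the other 5. The 2 arrays of an animal lay on 1 slide and were scanned on 1 day, so animal, slide and scan day cannot be told apart, and the pair differences hold all of them constant.

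The 2 glands differed in most of the miRNAs tested, under the main settings. Of 137 tested miRNAs, 91 (66.4%) differed at an adjusted p under 0.05, by limma on the pairs with Benjamini-Hochberg adjustment over all 137. In seminal vesicle 63 (46% of those tested) were higher, and in ventral prostate 28 (20.4%). Of the 137, 90 were detected on all 6 arrays, and of these 36 were higher in seminal vesicle and 18 in ventral prostate. The other miRNAs passed the detection filter through 1 gland alone, 37 through seminal vesicle and 10 through ventral prostate. For these the filter favours the gland where the miRNA is high, so differences toward that gland are given below as values without a p. The difference was over 2-fold in 33 of the 63 and 15 of the 28. The median log2 difference, seminal vesicle minus ventral prostate, was 0.28 over all tested miRNAs and 0.07 over the 90 detected on all 6 arrays. The 3 arrays of one organ did not overlap with those of the other for 97 of the 137 (70.8%), and for 88 of the 91 called.

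The split between higher and lower depended on the scaling. It was 38 to 57 when arrays were scaled by their median, 52 to 37 after quantile normalization, 72 to 15 with no scaling, 29 to 31 with another background correction and 53 to 39 in the authors' own table. The number called in either direction fell from 91 to 60 of 137 with the other background correction and to 45 with a floor 4 times higher. Of the 91 calls, 53 kept their direction and stayed past the threshold under each of 5 other scalings, 38 higher in seminal vesicle and 15 higher in ventral prostate. Small differences are read below with this in mind, and each difference is relative to the scaling over 37 miRNAs.

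**Figure D1:**
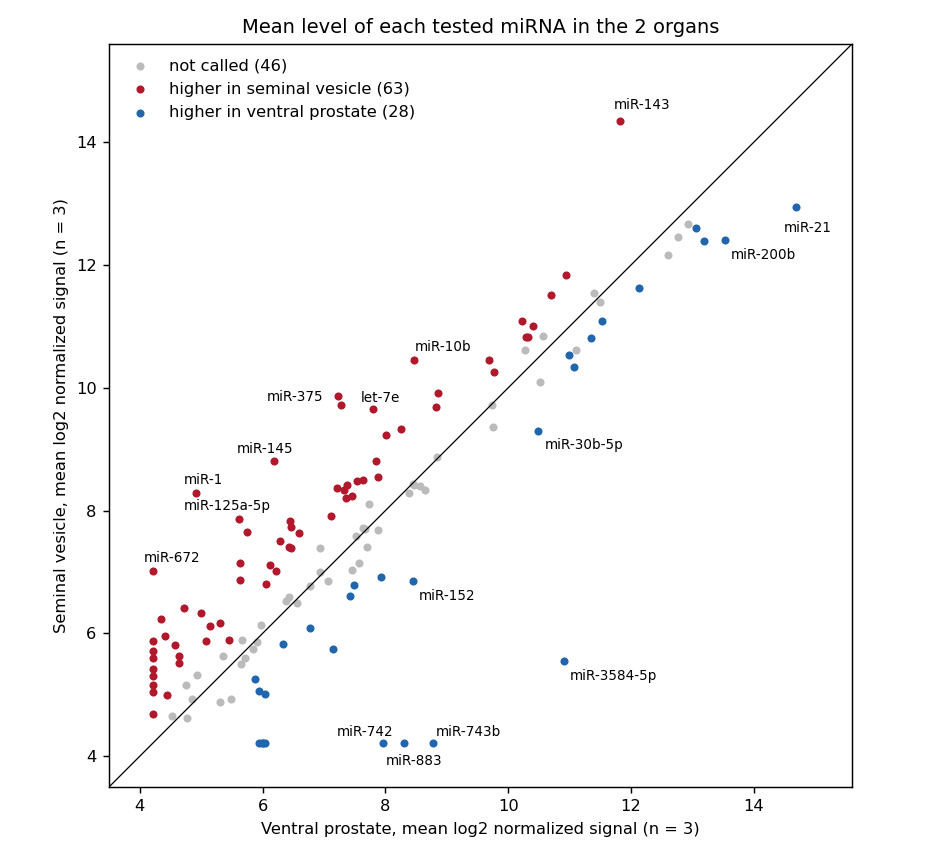
Each point is 1 of the 137 tested miRNAs, with its mean log2 normalized signal in ventral prostate (x axis) and in seminal vesicle (y axis), 3 arrays each. The 63 red points were higher in seminal vesicle, the 28 blue points higher in ventral prostate and the 46 grey points were not called. miR-143 and miR-21 stand apart at high signal, and miR-743b, miR-883 and miR-742 lie at the floor of seminal vesicle.

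miR-21, an abundant miRNA of many epithelia that represses Pdcd4 and other growth inhibitors, was higher in ventral prostate. Its normalized signal was 8172, 6335 and 9304 in the seminal vesicles of animals 4, 5 and 6 and 19568, 27096 and 35079.5 in their ventral prostates. Every ventral prostate array was thus above every seminal vesicle array, by 3.38-fold on average. The log2 difference was -1.76 ± 0.20 (SE, adjusted p = 5.81e-06), with a 95% interval from -2.19 to -1.32, and it was -1.26, -2.10 and -1.91 in the 3 animals. The exact two-sided permutation test of 3 against 3 arrays gave p = 0.1, the smallest that it can give. Among the mean levels of the 55 perfused organs, ventral prostate ranked 1 for miR-21 and seminal vesicle 14, and the rest of the prostate (labelled prostate_other) had 9462, 14166 and 10736 in the 3 animals. These levels lay between those of the 2 glands in all 3 animals. The mature miR-21 sequence lies at chr10:71902653-71902674 on the minus strand of GRCr8.

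Of the 7 miRNAs detected on every ventral prostate array and no seminal vesicle array, 5 came from the X-linked testis cluster, a run of fast-evolving miRNA genes known for their expression in male germ cells. Of its 22 miRNAs on the array, 14 were detected on none of the 6 arrays. The 5 passed the detection filter through ventral prostate alone, so their direction was fixed by that filter, and their sizes are given as lower bounds. miR-743b had a normalized signal of 582, 206 and 695 in the 3 ventral prostates and of -2.94, -2.43 and -5.03 in the seminal vesicles, where it was not well above background on any array. miR-883 had 423, 199 and 377 against -0.802, 0.128 and -0.912, and miR-742 had 314, 142 and 345 against 0.566, -0.912 and 0.565. In each of the 3 animals the ventral prostate thus carried the miRNA and the seminal vesicle gave no signal above background. miR-743b was at least 25.4-fold, miR-883 at least 18.4-fold and miR-742 at least 14.5-fold higher in ventral prostate, where the seminal vesicle side is taken, array by array, at the lowest signal detected on that array or at the miRNA's own signal, whichever is higher.

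The opposite arms of 2 of these hairpins followed. miR-742* was at least 3.70-fold and miR-883* at least 3.56-fold higher in ventral prostate. The 4 probe sequences of miR-742* differed among themselves, from -2.80 to 0.00 in log2 difference against the floor. Animal 5 had the lowest ventral prostate signal of all 5 miRNAs, at 36.6 for miR-883* and 37.4 for miR-742*. With a floor 4 times higher, miR-743b, miR-742, miR-742* and miR-883* were no longer past the threshold and miR-883 still was.

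In ventral prostate the detected miRNAs of this cluster came from 1 stretch of it. The description follows the hairpins along chromosome X, and the place where they are divided was chosen after the values were seen, so no test is given. Mir743a, Mir743b, Mir742 and Mir883 lie within 7951 bases (chrX:150444088-150452038, GRCr8), followed by a gap of 10857 bases and then by 8 further hairpins of the list (chrX:150462896-150488242). In the first stretch, 7 miRNAs were detected on all 3 arrays of the testis (labelled testicle), and their mean signals in ventral prostate were 17.1% to 52.1% of those in testis. Of these 7, miR-743a* was detected on 1 and miR-743b* on 2 of the 3 ventral prostate arrays, and the other 5 on all 3. In the second stretch, 8 miRNAs were detected on all 3 testis arrays and on none of the ventral prostate arrays. With each undetected signal taken in the same way, their upper limits in ventral prostate were 0.771% to 4.98% of testis for 7 of them and 38.1% for miR-881*, which is dim in testis too. miR-741-3p, for example, had a mean of 3491 in testis and was not well above background in ventral prostate, whereas miR-742 had 512 in testis and 267 in ventral prostate.

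The epididymis, which is joined to the testis, had overlapping values for both stretches. There the first stood at 9.74% to 39.3% of testis and the second at 13.6% to 37.3%. For comparison, miR-34b, a germ cell miRNA whose highest organ was also the testis, was in ventral prostate at 0.484% of the testis mean, and miR-449a, not detected there, at no more than 0.402%. Each of miR-743b, miR-883 and miR-742 was detected on all 3 arrays of 3 organs among the 55, testis, epididymis and ventral prostate. In prostate_other of the same animals, miR-743b gave -1.46, 24.6 and 4.91, with detection on 1 of 3 arrays, far under the ventral lobe.

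**Figure D2:**
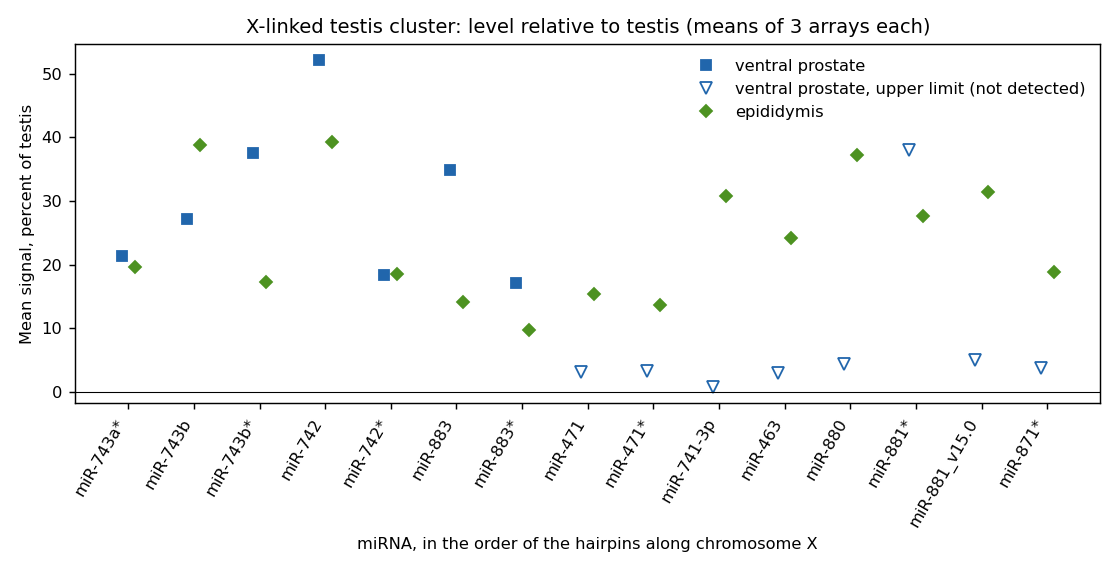
The mean normalized signal of ventral prostate (squares, or open triangles at the upper limit where no array detected it) and of epididymis (diamonds) is given as a percent of the mean in testis, for the 15 miRNAs of the X-linked testis cluster detected on all 3 testis arrays, in the order of their hairpins along chromosome X. Ventral prostate is at 17.1% to 52.1% for the 7 miRNAs on the left and was not detected for the 8 on the right, where the limits are 0.771% to 4.98% but for miR-881* at 38.1%, while epididymis is between 9.74% and 39.3% throughout. Each point is a mean of 3 arrays over a mean of 3 arrays.

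In the miR-34 family, known for p53-dependent miR-34a and for miR-34b of multiciliated and germ cells, miR-34a was higher in ventral prostate by the test. miR-34b had 61.2, 68.2 and 63.7 there and 13.4, 7.12 and 13.3 in seminal vesicle, which made it at least 3.74-fold higher, in a direction fixed by the detection filter. A probe set for an earlier version of the same miRNA gave at least 3.76-fold and is not an independent measurement. miR-34a, which has the same seed but differs in 11 of 22 bases, had 136, 182 and 114 against 54.0, 55.1 and 52.0, a log2 difference of -1.40 ± 0.19 (SE, adjusted p = 2.24e-05). Both miRNAs were thus higher in each ventral prostate than in any seminal vesicle, and miR-34a was low in seminal vesicle relative to most organs (rank 51 of 55). miR-34a and miR-34b lost their calls with a floor 4 times higher, and miR-34c, detected on 2 of the 3 ventral prostate arrays, was not tested.

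miR-3584-5p had the largest difference of the 90 miRNAs detected on all 6 arrays. Its signal was 850.1, 1954 and 4260.1 in the ventral prostates of animals 4, 5 and 6 and 41.7, 61.0 and 39.8 in their seminal vesicles, a log2 difference of -5.36 ± 0.33 (SE, adjusted p = 2.12e-08). The groups lay far apart, but its pair differences, with -4.35 in animal 4 and -6.74 in animal 6, also had the largest spread of these 90. In prostate_other it ran from 50.4 in animal 4 over 1257 in animal 5 to 7924 in animal 6, and its highest organ was the pancreas. It is an 18-base sequence at chr1:256727582-256727599 on the minus strand, within the bounds of Itprip.

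Among the remaining miRNAs higher in ventral prostate, miR-152, which shares its seed with the Dnmt1-targeting miR-148 family, had 309, 366 and 371 against 123, 115 and 108. It was detected on 2 of the 3 seminal vesicle arrays and passed the filter through ventral prostate alone. The log2 difference was -1.60 ± 0.18 (SE), and ventral prostate again held the first place of the 55 organs. miR-148b-3p, with the same seed and 2 differing bases of 21, was also higher in ventral prostate, with -0.70 ± 0.18 (SE, adjusted p = 0.0034). miR-221, a repressor of the cell cycle inhibitor p27, had 216, 290.1 and 233 against 123, 140.4 and 103, a log2 difference of -1.01 ± 0.18 (SE, adjusted p = 0.000225). miR-7a, a miRNA of endocrine and secretory cells, passed the filter in the same way, with -1.02 ± 0.20 (SE), and both it and miR-221 were higher in ventral prostate in every pair. With a floor 4 times higher the difference of miR-7a was -0.014 and no longer called.

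The miR-200 family, which holds cells in the epithelial state by repressing Zeb1 and Zeb2, had members higher in ventral prostate. Of 7 tested members, 3 were higher there, none in seminal vesicle and 4 were not called, with a median log2 difference of -0.49 against 0.28 over all tested. Over all tested miRNAs 20.4% were higher in ventral prostate and 66.4% were called in either direction. The summed signal of the list was 27122 to 37969 in ventral prostate and 15949 to 22725 in seminal vesicle. miR-200b had 10357, 10212 and 15427 against 5910.5, 4431 and 6047, with -1.12 ± 0.18 (SE, adjusted p = 0.000139), and was highest of 55 organs in ventral prostate. miR-429 (log2 difference -0.74, adjusted p = 0.00273) and miR-200b* (-0.51, adjusted p = 0.026) were the other 2 called. miR-141 had -0.49 (adjusted p = 0.0763), with pair differences of 0.14, -1.21 and -0.39, so that animal 4 went the other way. miR-200a had -0.44 (adjusted p = 0.0569), one probe set of miR-200c (named with its version 15.0) had -0.26 (adjusted p = 0.201) and the other had 0.02 (adjusted p = 0.926). Of the 7, 1 was higher in ventral prostate with no scaling and 7 were with median scaling. The mean log2 signal of miR-200b was 13.48 in prostate_other and 13.52 in ventral prostate. Means in prostate_other were above those in ventral prostate for miR-200a, miR-200b*, miR-429 and miR-200c. They were below for miR-141 and miR-200c (version 15.0).

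Toward seminal vesicle, miRNAs of the smooth muscle list were among the largest differences. Of the 10 on this list 4 were tested. miR-143 and miR-133b, detected on all 6 arrays, were higher in seminal vesicle, where 46% of all tested miRNAs were, and held their calls under every alternative run. miR-145 and miR-1 were detected on 2 of the 3 ventral prostate arrays and passed the filter through seminal vesicle alone. miR-143, which with miR-145 keeps smooth muscle cells contractile, had 18266, 21881 and 22359 in the seminal vesicles and 4307, 3073 and 3603 in the ventral prostates, a log2 difference of 2.52 ± 0.19 (SE, adjusted p = 1.67e-07). Seminal vesicle ranked 3 of 55 organs for miR-143. miR-145, encoded with miR-143 within 1362 bases of chromosome 18 (chr18:57370033-57371394, minus strand, within the bounds of the lncRNA gene Carmn), had 433, 585 and 359 against 108, 74.5 and 47.2, with 2.64 ± 0.21 (SE). These 2 neighbours thus differed by nearly the same amount under the main settings. Over the alternatives, the lowest difference was 2.01 for miR-143 and 1.27 for miR-145.

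miR-1 and miR-133b, miRNAs shared by several muscle types, followed the same direction. Both had their highest mean log2 signal of the 55 organs in femoris muscle, at 16.05 and 16.36. Mean log2 signals of miR-1 were 8.28 in seminal vesicle, 8.77 in bladder, 6.59 in anterior stomach, 5.25 in aorta and 4.74 in vein. In the same organs miR-133b had 9.87, 10.36, 9.81, 8.11 and 7.29, and miR-143 had 14.34, 14.53, 14.61, 13.70 and 13.35. miR-1 had 253, 471 and 251 in seminal vesicle and 41.1, 30.5 and 21.6 in ventral prostate, with 3.37 ± 0.23 (SE). The 21.6 of animal 6 lay under 43.7, the lowest signal detected on that array, so the size of this difference is not exact. Over the alternatives its lowest difference was 1.18. miR-133b had 778, 1180.2 and 889 against 191, 133 and 132, with 2.64 ± 0.22 (SE, adjusted p = 2.56e-07). In prostate_other miR-1 gave 124, 693 and 739.9, which passed both glands in animals 5 and 6. In miR-1, miR-133b, miR-143 and miR-145 alike, animal 4 had the smallest pair difference of the 3. None of the 5 miRNAs of skeletal and heart muscle on the list, miR-206, miR-499 and the miR-208 probe sets, was detected on any of the 6 arrays. The summed signal of the smooth muscle list was 19841 to 24249 in seminal vesicle and 3320 to 4661 in ventral prostate, and bladder, an organ with a thick muscle wall, had 24921, 26108 and 20293 for miR-143. This sum did not overlap between the organs, but most of it was miR-143, so it adds little to the result for that miRNA. The part of smooth muscle content in the other differences was not tested.

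Further stromal lists gave smaller differences. All 3 tested miRNAs of the mesenchymal list (miR-199a-5p, miR-199a-3p and miR-214, known from fibroblasts and other mesenchymal cells) were higher in seminal vesicle, as 46% of all tested miRNAs were, with a median of 1.22 against 0.28. They are encoded at 1 locus (chr13:77116255-77121733, plus strand, within the bounds of Dnm3). miR-199a-5p and miR-199a-3p are opposite arms of 1 hairpin, so the 3 are not independent of each other. miR-199a-5p had 225, 278 and 191 against 111, 83.0 and 70.3 (1.40, adjusted p = 3.05e-05) and miR-214 had 164, 205 and 181 against 90.7, 66.9 and 78.8 (1.22, adjusted p = 0.000102). Under median scaling, quantile normalization, the other background correction and the higher floor, 2 of the 3 were called. The endothelial miR-126 had a log2 difference of -0.30 (adjusted p = 0.161), with a 95% interval from -0.69 to 0.09. It was called toward ventral prostate with median scaling (-0.80), with quantile normalization (-0.70) and in the authors' table (-0.55).

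**Figure D3:**
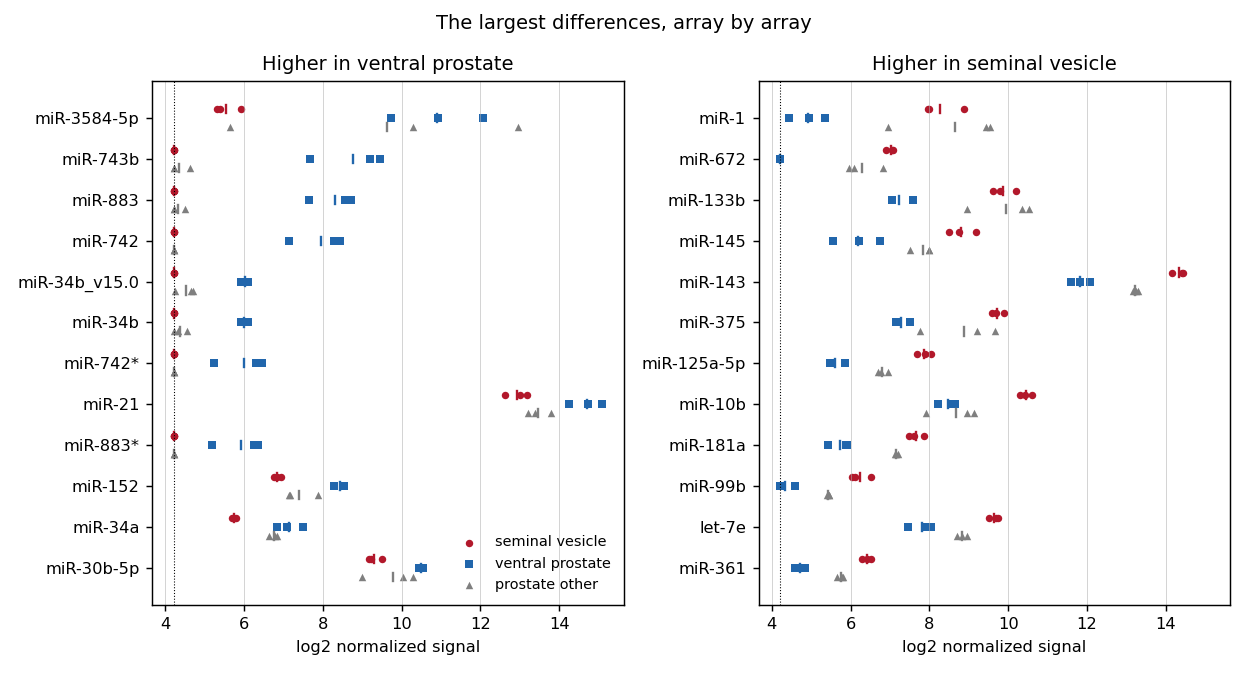
The 12 largest differences in each direction are shown array by array, as log2 normalized signal on the x axis, for seminal vesicle (circles), ventral prostate (squares) and prostate_other (triangles), with the mean of 3 arrays as a vertical tick and the floor as a dotted line. Circles and squares do not overlap in any of the 24 miRNAs, which were picked for their large differences. Of all 137 tested miRNAs, 97 (70.8%) had no overlap. prostate_other lies between the 2 glands for miR-143 and miR-145 and at or near the floor for miR-743b, miR-883 and miR-742.

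miR-375, a miRNA of pancreatic islets and other secretory epithelia, was higher in seminal vesicle. It had 956, 829 and 768 there and 143, 142 and 183 in ventral prostate, with 2.45 ± 0.19 (SE). It was detected on 2 of the 3 ventral prostate arrays and passed the filter through seminal vesicle alone. Seminal vesicle ranked 5 of 55 organs, with the pancreas highest, while bladder gave 0.243, -0.299 and 0.212 and epididymis 6.80, 5.39 and 3.59, both not well above background. miR-672, encoded at chrX:73192351-73192373 (minus strand) within the bounds of Nexmif, had 133, 120.2 and 136 in seminal vesicle and 13.5, 12.8 and 18.4 in ventral prostate, where it was not well above background on any array. It was at least 5.29-fold higher in seminal vesicle, a direction that the detection filter fixed. Its highest organ was the epididymis, with 737, 858 and 533, and seminal vesicle ranked 4 of 55.

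Of a cluster of 3 miRNAs, let-7e, detected on all 6 arrays, was higher in seminal vesicle by the test. miR-99b, let-7e and miR-125a-5p are encoded within 643 bases of chromosome 1 (chr1:67350070-67350712, plus strand, within the bounds of Spaca6). let-7e had 731, 829 and 850.1 in seminal vesicle and 262, 175 and 242 in ventral prostate, with 1.84 ± 0.19 (SE, adjusted p = 2.78e-06). miR-125a-5p had 206, 262 and 235 against 58.0, 44.8 and 44.9, with 2.26 ± 0.19 (SE), and was detected on 2 of the 3 ventral prostate arrays. miR-99b had 69.6, 92.0 and 65.6 against 24.0, 16.9 and 9.71, was not well above background in any ventral prostate and was at least 2.65-fold higher in seminal vesicle. Both passed the filter through seminal vesicle alone. Ventral prostate lay near the bottom of the 55 organs in 2 of these, at rank 48 for let-7e and 52 for miR-125a-5p. The largest pair difference of let-7e and of miR-125a-5p was in animal 5. miR-99b lost its call with the other background correction and with the higher floor.

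The let-7 family, whose members share 1 seed and act as differentiation miRNAs, was thereby divided. let-7c, which differs from let-7e in 2 of 22 bases, had 8439, 8369 and 11569 in ventral prostate against 5038, 5608 and 5431 in seminal vesicle, with -0.80 ± 0.18 (SE, adjusted p = 0.00153), a call that was lost with no scaling and with the higher floor. Of 8 tested members, let-7e was the 1 higher in seminal vesicle, 3 (let-7a, let-7b and let-7c) were higher in ventral prostate and 4 were not called, with a median of -0.36, beside 46% and 20.4% of all tested miRNAs in these directions. With no scaling, 2 members were higher in seminal vesicle and 0 in ventral prostate. let-7a (-0.44, adjusted p = 0.0414) differs from let-7e in 1 base, and cross-hybridization between such probes was not tested. The let-7e difference kept its direction and call under each scaling, whereas the median of the family turned to 0.04 with no scaling. The summed signal of the family was 23305 to 25020 in seminal vesicle and 30076 to 37558 in ventral prostate.

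In the miR-30 list, which includes opposite arms with other seeds, members also differed in direction. miR-30b-5p was higher in ventral prostate, with 1400.3, 1436 and 1479.5 against 722, 581 and 599.6 and a log2 difference of -1.19 ± 0.18 (SE, adjusted p = 7.06e-05), and ventral prostate ranked first of 55 organs. miR-30a went the other way, with 627, 509 and 685 in seminal vesicle against 266, 243 and 264 and 1.23 ± 0.18 (SE, adjusted p = 4.77e-05), as did miR-30c with 1.06 ± 0.17 (SE, adjusted p = 0.000133). Over the 7 tested miRNAs of the list, 5 were higher in seminal vesicle (among them miR-30a* and miR-30e*, which passed the filter through that gland alone), 1 in ventral prostate and 1 (miR-30d, -0.10) was not called, where 46% and 20.4% of all tested miRNAs were higher in these glands. miR-30a, miR-30c and miR-30e have the same seed in RefSeq, and no sequence was matched for miR-30b-5p. Under median scaling the counts were 3 and 2. miR-30a, miR-30b-5p and miR-30c, like let-7e, held their calls under every alternative run.

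In the miR-29 list, regulators of collagen and other matrix genes, miR-29a (-0.43, adjusted p = 0.0414) and miR-29b (-0.54, adjusted p = 0.0253) were higher in ventral prostate and miR-29c (0.49, adjusted p = 0.0338) in seminal vesicle. miR-29c*, an opposite arm with another seed, had 1.00 and passed the filter through seminal vesicle alone. In the miR-15/16 family, which restrains the cell cycle, miR-16 was higher in ventral prostate (-0.45, adjusted p = 0.0353), and miR-195 (0.85), miR-497 (0.84) and miR-322 (0.98) in seminal vesicle (miR-15b was not called, at -0.02), with adjusted p of 0.0012, 0.00117 and 0.000314. miR-101b, 1 base apart from miR-101a over 21 bases, had 1.27 ± 0.19 (SE, adjusted p = 7.09e-05), while miR-101a had -0.02 (adjusted p = 0.941). Differences of this size in miR-29 and miR-16 are within reach of the scaling: under median scaling the log2 difference of miR-29c was -0.0090.

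miRNAs of the Hox loci, which follow the position of an organ along the body axis, were also divided. miR-10b, encoded at chr3:80035886-80035907 (plus strand) within the bounds of Hoxd4, had 1389, 1251 and 1567 in seminal vesicle and 375, 299 and 401 in ventral prostate, with 1.97 ± 0.17 (SE, adjusted p = 5.21e-07). Its pair differences were close to each other, at 1.89, 2.07 and 1.97. miR-10a-5p was higher in seminal vesicle by less (0.60, adjusted p = 0.0076), and miR-196b was higher in ventral prostate (-0.80, adjusted p = 0.00238). Both calls depended on the settings: of 21 alternatives, miR-196b was called under 18 and miR-10a-5p under 17. Among the losses, miR-196b was not called with no scaling or with the higher floor. miR-10a-5p was not called with median scaling, where its difference was 0.097, or in the authors' table, where it was 0.35. The epididymis had the highest mean of 55 organs for both miR-10b and miR-10a-5p.

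Of the 10 tested miRNAs that the list links to androgens or the androgen receptor, 3 were higher in ventral prostate (miR-21, miR-221 and let-7c), 6 in seminal vesicle and 1 (miR-141) was not called, beside 20.4% and 46% of all tested miRNAs. The 6 were miR-27a (1.05), miR-100 (0.92), miR-23a (0.87), miR-125b-5p (0.81), miR-24 (0.54) and miR-99a (0.49), with adjusted p between 0.000216 and 0.0338 for the 5 detected on all 6 arrays. miR-100 passed the filter through seminal vesicle alone. The list thus held members in both directions, and its median was 0.51 against 0.28 over all tested. Under median scaling 1 was higher in seminal vesicle and 4 in ventral prostate, with a median of 0.01. All 5 tested miRNAs of the miR-23, miR-24 and miR-27 clusters were higher in seminal vesicle, where 46% of all tested miRNAs were, with a median of 0.87. With the same scaling 1 of them passed the threshold. In the miR-99, miR-100 and miR-125 group, miR-99a and miR-125b-5p were detected on all 6 arrays, and the other 3 passed the filter through seminal vesicle alone.

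The other miRNA lists are given by their counts. In the basal and squamous epithelium list, the 2 probe sets of miR-205 were detected on all 6 arrays and were not called. miR-203 was detected on 1 of the 3 ventral prostate arrays, where its mean log2 signal of 4.41 lay near the floor of 4.21. Its log2 difference of 1.55 thus depends on the floor, and it ran from 0.010 to 1.80 over the settings. Both miR-203 and miR-31 passed the filter through seminal vesicle alone. With normexp background correction and with the higher floor none of the 4 was called, and the list's median log2 difference was 0.073 and 0.031. miR-31 had 50.2, 54.0 and 52.9 in seminal vesicle and was not well above background in ventral prostate, which made it at least 2.14-fold higher. In the miR-181 family, miR-181a (179.2, 194.3, 232.3 against 58.8, 43.2 and 60.3, log2 difference 1.91) was higher in seminal vesicle, and ventral prostate was the lowest of 55 organs for miR-181a. miR-181b was not well above background in ventral prostate, was at least 1.05-fold higher in seminal vesicle, a direction fixed by the filter, and was called under 8 of 20 alternatives. Among leukocyte miRNAs, miR-142-3p (0.78) and miR-146a (0.79) were higher in seminal vesicle, where 46% of all tested miRNAs were. miR-223 (0.45) and miR-146b (0.39) were not called. None of the 4 was called under median scaling, and all 4 were higher in seminal vesicle with no scaling. miR-142-3p rested mostly on animal 4, with pair differences of 1.58, 0.47 and 0.29.

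No erythroid miRNA of the list (miR-451, miR-144 and their opposite arms) was detected on any of the 6 arrays of these perfused animals, and no miRNA of the list of gut, liver and kidney epithelium (miR-192 and its relatives) was tested. Of the neural list, miR-9 (-0.86) and miR-9* (-0.63) were higher in ventral prostate and miR-128, which passed the filter through seminal vesicle alone, had 0.55, all at low signals, and with the higher floor none of the 3 was called. In the miR-17-92 and miR-106b-25 list, 1 of 6 tested members was called, miR-92a (1.04, adjusted p = 0.00021), against 66.4% of all tested miRNAs. With median scaling 4 of the 6 were called toward ventral prostate. Neither of the 2 tested members of the miR-183 cluster nor of the 2 of the imprinted cluster between Dlk1 and Dio3 was called, and 61 of the 63 miRNAs of the latter were not detected on any of the 6 arrays. With median scaling, 1 of 2 and 2 of 2 were called toward ventral prostate.

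**Figure D4:**
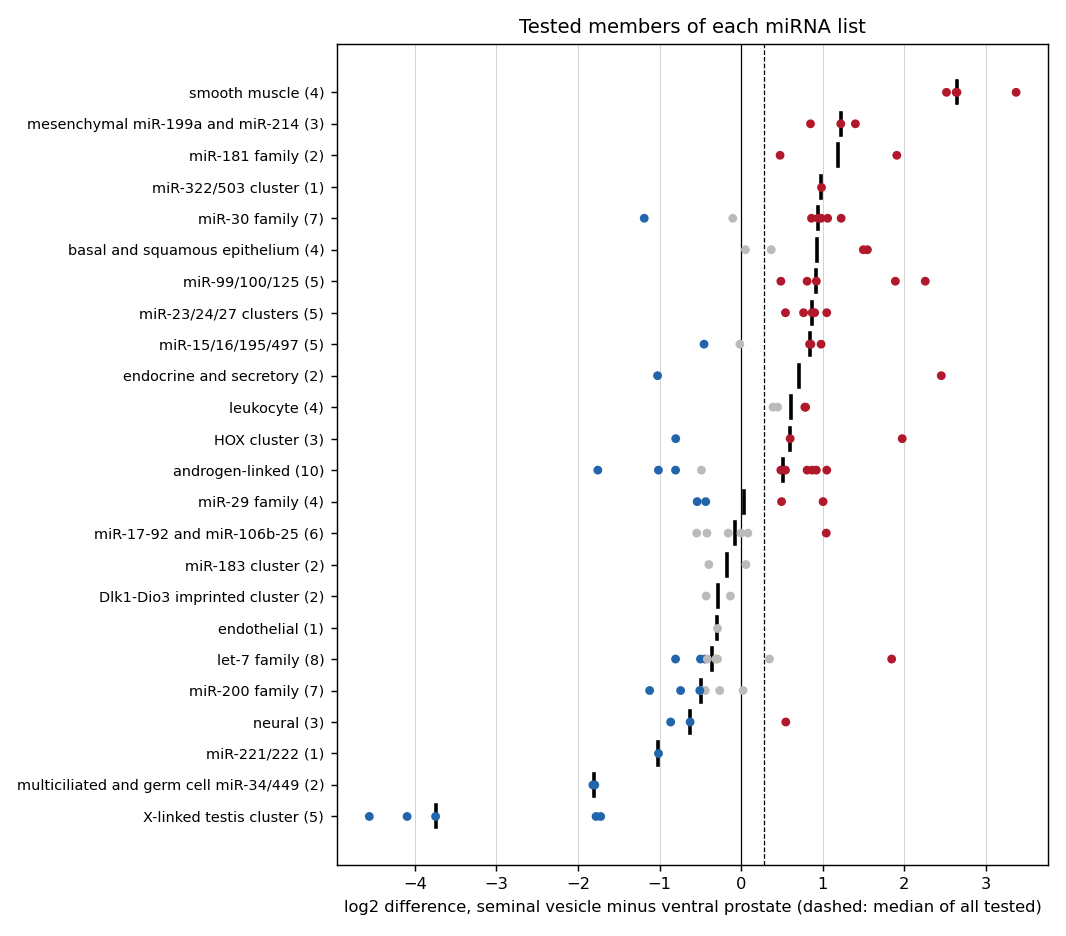
Each row is a miRNA list with its number of tested members in parentheses, each point is 1 member with its log2 difference, seminal vesicle minus ventral prostate, and the short vertical line is the median of the list. Red points were higher in seminal vesicle, blue points higher in ventral prostate and grey points not called, and the dashed line is the median of all 137 tested miRNAs, at 0.28. The smooth muscle list lies furthest to the right, with a median of 2.64 (2 of its 4 members passed the filter through seminal vesicle alone), and the X-linked testis cluster furthest to the left. With normexp background correction the smooth muscle median is 1.51. The X-linked members are at the floor in seminal vesicle, so their place depends on it, with a median of -5.75 with the floor divided by 4 and of -1.75 with it multiplied by 4.

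Of the other miRNAs with the largest differences toward seminal vesicle, miR-361 had 86.1, 78.2 and 90.9 against 28.7, 26.9 and 23.9 in ventral prostate, where it was not well above background, and was at least 2.63-fold higher in a direction fixed by the filter. In all, 11 of the called miRNAs were detected on every seminal vesicle array and on no ventral prostate array, and 7 the reverse. The 5 miRNAs with the highest signal in seminal vesicle were miR-143, miR-21, miR-200c (version 15.0), let-7a and let-7f. In ventral prostate they were miR-21, miR-200b, let-7c, let-7a and miR-200c (version 15.0). Signals of different probes are not on 1 scale, so these are listed without an order of amount.

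For a few miRNAs the 3 animals differed widely. Besides miR-3584-5p, miR-142-3p and miR-141, the largest spreads were those of miR-652*, with 0.89, -0.87 and 0.44 in animals 4, 5 and 6, and of the earlier probe set of miR-494, with -0.79, 0.02 and 0.85. At the threshold, miR-29a (adjusted p = 0.0414), let-7a (0.0414) and miR-301a lay just inside, and let-7i (0.051), miR-19a (0.0516) and miR-223 (0.0545) just outside. miR-301a passed the filter through seminal vesicle alone, so only its log2 difference of 0.45 is given. The median SD of the pair differences was 0.26 over the 90 miRNAs detected on all 6 arrays, and the precision is limited by the 3 animals.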

How the data were processed

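RNA was extracted from the organs with a miRNeasy kit, labelled with Cy3 and hybridized to a custom Agilent rat miRNA array with probes of miRBase 15.0 and 16.0. Per the file headers, the deposited spot intensities came from Agilent Feature Extraction 10.7.3, background-subtracted and not normalized between arrays. The authors' deposited table of intensities had been scaled by them to a 75th percentile and served as an alternative.

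From the spot signals, non-outlier spots were averaged per probe and probes per miRNA. The 75th percentile of 37 miRNAs was set to 2118 on each array, and signals were floored at 18.5 and taken to log2. Detection meant over 50% of spots well above background, tested miRNAs were detected on all 3 arrays of either gland (137), and 580 were not tested. The test was limma 3.58.1 (R 4.3.3) with organ and animal number as terms, two-sided, with Benjamini-Hochberg adjustment and a threshold of 0.05. It was checked on simulated data. Figures were drawn with matplotlib 3.10.9. At each "at least" fold, the dim side was taken, per array, at the higher of the lowest detected signal and the miRNA's own signal.

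The pairing comes from the labels, which give both glands of an animal the same number. Over 90 miRNAs, deviations from the organ means correlated within animals by -0.06, -0.13 and 0.34. Between glands of different animals these correlations ran from -0.29 to 0.32, a range much like that within animals. Arrays of 1 organ correlated by 0.977 to 0.993, and arrays of the 2 different organs by 0.856 to 0.916. Saturated spots numbered 0, and 2.15% to 4.95% of spots per array were outliers.

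Named miRNAs were miR-21, the 12 largest differences each way, the 5 brightest per gland, leading members of 27 lists, the 5 with most variable pairs, and the 3 on either side of the threshold. Shared-seed partners, cluster neighbours and testis miRNAs named besides were chosen after their values were seen. Members and lists were chosen with earlier results of these data known. Sequences and gene bounds came from RefSeq (GRCr8). Alternatives covered scaling, background, floor, detection filter, spot summary, fit, pairing and each animal left out. Animals are separate, but the sources do not say whether each array holds a separate extraction.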

Additional observations from a re-analysis of the deposited data

How the results depend on the processing

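miR-21 kept its direction and call under all 21 alternatives, with log2 differences from -2.26 to -1.36. The count of miRNAs higher in seminal vesicle was 63 and moved to 38 with median scaling, 29 with normexp background correction (offset 50), 34 with the floor multiplied by 4 and 37 of 90 with detection required on all 6 arrays. The count higher in ventral prostate was 28 and moved to 57 with median scaling, 15 with no scaling and 11 with the floor multiplied by 4. With 1 animal left out, these counts were 56 to 61 and 21 to 28. Without the animal as a block, the pairing being given by the labels, the counts were 62 and 28, and 88 of the 91 calls were shared. Median log2 differences shifted by -0.46 with median scaling, -0.39 with normexp and 0.39 with no scaling. None of the 91 called miRNAs was called in the opposite direction under any alternative, and 25 of the 91 calls held under all alternatives that tested them.

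Some differences changed sign, and of these miR-200c and miR-494 (version 15.0), not called in the report, then passed the threshold toward ventral prostate. With median scaling, the log2 difference was -0.48 for miR-200c, -0.017 for miR-99a, -0.0090 for miR-29c, -0.48 for miR-494 (version 15.0) and -0.056 for miR-301a. With quantile normalization it was 0.18 for let-7a and -0.60 for miR-200c. With normexp it was -0.23 for miR-128, -0.092 for miR-29c*, -0.019 for miR-30a*, -0.15 for miR-181b and -0.15 for miR-301a. The called miR-210, miR-30e*, miR-328a, miR-338, miR-342-3p, miR-362*, miR-532-5p and miR-872, with differences of 0.81 to 1.24, also turned under at least 1 alternative, with lowest values of -0.13 to -0.021. The cause was not tested. The ventral prostate means of miR-210, miR-328a, miR-362* and miR-532-5p were at the floor. Their differences therefore depend on the floor and have no exact size. Normexp was run on median spot and background signals, since no mean signal column was used here. The planned fit without a detection filter could not be fitted, because 539 miRNAs had a residual spread of 0. In its place, chosen after seeing the data, p adjusted over the whole design gave 56 and 21 calls. Signal over background limits dim miRNAs, and the dimmest array was the ventral prostate of animal 6.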
